A study of Mus musculus with 10 samples.

Results

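Amino acid transporters carry amino acids, and in some families taurine, creatine, betaine or neurotransmitters, across cell membranes. Their genes were followed in the liver of mice that lack Nr1d1, which encodes the clock repressor Rev-erb alpha. The genes were taken by name, as every gene of solute carrier families 1, 3, 6, 7, 36, 38 and 43 whose probe set had a single symbol in the array annotation. The rule gave 64 genes on 66 probe sets, of 19933 genes tested. Slc6a19os and Slc7a6os met it only because they are named after the gene on the opposite strand, which left 62 transporter genes. Slc38a1 and Slc38a9 had more than 1 probe set, and the one of highest mean stood for the gene.

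The 2 groups were 5 Nr1d1-/- (KO) livers and 5 wild-type (WT) livers, each from 1 male mouse. All mice were aged 10 to 12 weeks and ate normal chow. Lights were on for 12 h and off for 12 h a day, and livers were taken at ZT10, 10 h into the light phase. KO mice came from a line that lacks the gene in the whole body and was backcrossed to C57Bl/6 for at least 7 generations, while WT C57Bl/6 mice were bought, so genotype and origin cannot be told apart. Each liver had an Affymetrix Mouse Gene 1.0 ST array of its own, and values are log2 of the deposited normalized intensity.

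Hepatocytes take up many of the amino acids that reach the liver in portal blood, and use them for protein, urea, glucose and glutathione. Sodium-coupled carriers of family 38 move glutamine, alanine and other small neutral amino acids. Carriers of family 7 either work alone on cationic amino acids or form exchangers with a heavy chain of family 3. Several of these genes are known targets of ATF4, the transcription factor induced when amino acids run short, which binds a composite C/EBP-ATF response element.

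The arrays were alike, with r between 0.994 and 0.998 for arrays of the same genotype and between 0.990 and 0.995 across genotypes, over genes. The 3 arrays of widest interquartile range were KO replicates 4 and 5 and WT replicate 1. The single Nr1d1 probe set did not separate the genotypes, at 9.92 ± 0.45 in KO and 9.78 ± 0.16 in WT livers (SD, n = 5 each, limma adjusted p = 0.803), and its position relative to the deletion is not known here. The 7 measured hepatocyte markers all read at least 12.89 on average. In bulk liver, fewer cells of a type and less RNA per cell cannot be told apart. No gene passed the limma test in 11 of the 14 marker lists. These were the lists of hepatocytes, macrophages, sinusoidal endothelium, stellate cells, lymphocytes, neutrophils, erythroid cells, adipocytes, pancreatic acini, kidney tubules and neurons or glia. In these 11 lists 8 of 77 genes had an unadjusted limma p under 0.05, against 17.4% of all genes. Of these 8 genes, 3 were among the 9 sinusoidal endothelial markers, whose mean log2 level was higher in KO by 0.13. Summed macrophage marker intensity lay between 5230 and 7102 in KO and between 5633 and 8072 in WT livers, and the summed endothelial markers lay between 7423 and 9471 in KO and between 6768 and 9051 in WT. The sums of the 6 measured periportal hepatocyte markers did not overlap, at 35568 to 37731 in KO and 33094 to 34954 in WT livers. Of these 6, Hal (0.42) and Ctsc (0.34) passed the test, and no other had an unadjusted limma p under 0.05. Sox9, 1 of 6 cholangiocyte markers, was higher in KO by 0.62. The part of these cell types in the values below was not tested.

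Of the amino acid transporter genes 5 changed, each by less than 1.5-fold. Slc6a8, which imports creatine, the neutral amino acid carriers Slc1a5 and Slc7a5 and the proline and tryptophan carrier Slc36a4 fell, and the betaine transporter Slc6a12 rose. A gene counts as changed where its limma p, adjusted across the whole table by Benjamini-Hochberg, is below 0.05. The 5 are 7.81% of the 64 genes, against a background of 5.61% of all genes. Lower calls were 6.25% of the transporters and 2.44% of all genes, and higher calls 1.56% and 3.17%. The median difference, KO minus WT on the log2 scale, was 0.00 over the transporters and 0.01 over all genes, and 33 transporter genes read higher and 31 lower. Differences ran from -0.39 to 0.27. KO and WT arrays did not overlap in 6 of the 64 genes (9.38%), against 7.00% of all genes. Both the share called in either direction and the share without overlap were near the background, so the counts describe single genes and not the transporters as a whole.

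The precision was enough to bound most of the other genes. The 95% interval of the difference lay within a 1.5-fold change in either direction for all 64 genes, and within a 1.25-fold change for 49 of the 59 genes that did not pass. These intervals are those of the limma fit for single genes, without adjustment. Probe brightness differs between genes, so levels are compared between livers and not between genes. As a guide to signal, 45 of the 64 genes had a mean above 6.72, the 95th percentile of the means of 1027 olfactory receptor genes, most of which liver is not known to use. All 5 changed genes were among the 45, of which they make 11.1%, against 8.08% of all genes above that level. Of the 40 genes above it that did not pass, 30 had an interval within a 1.25-fold change. For the 19 genes not above it, signal over background is unknown, so their intervals bound the array value only.

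**Figure D1:**
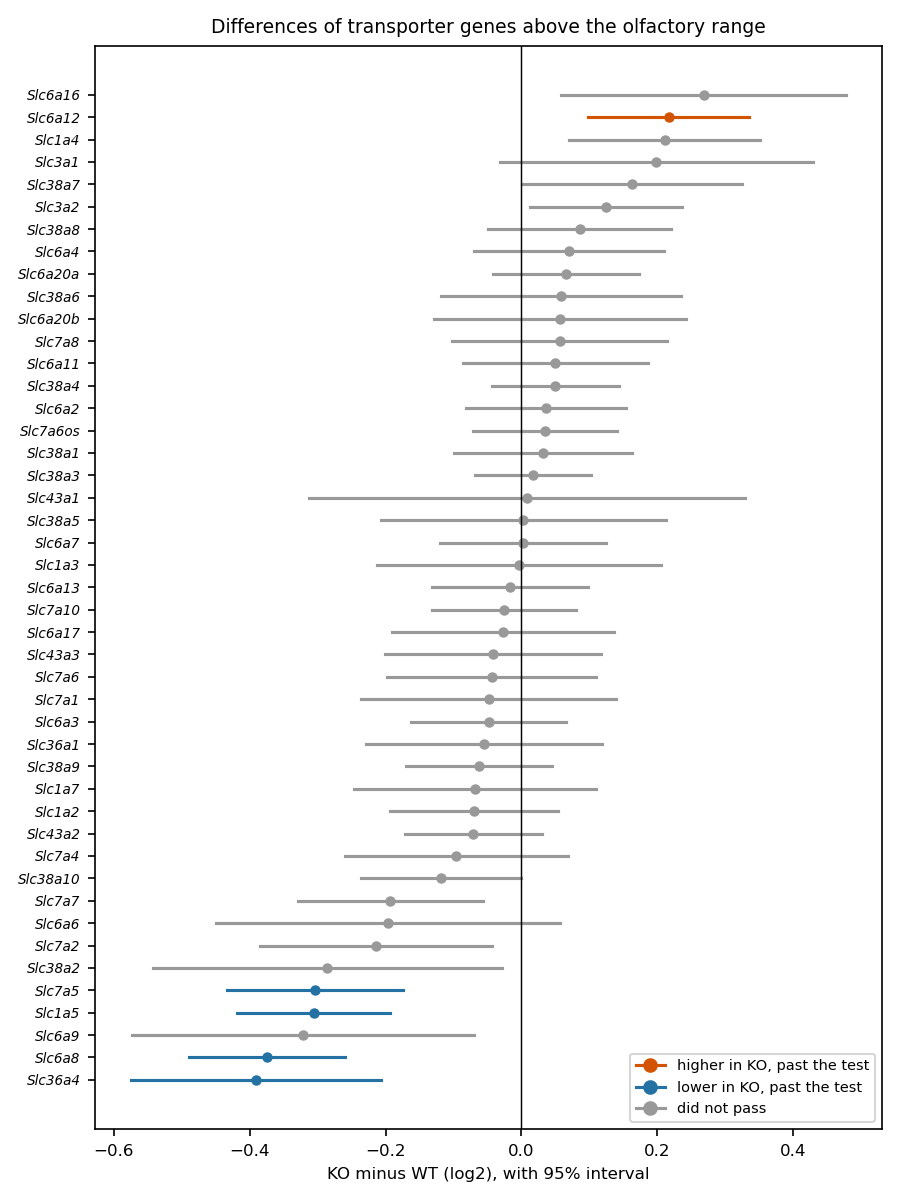
Difference between KO and WT livers (log2, x axis) for the 45 genes with a mean above the 95th percentile of olfactory receptor genes, ordered by size, with the 95% interval of the limma fit as bars. Blue marks the 4 genes lower in KO and orange the 1 gene higher in KO at adjusted p under 0.05, and the intervals of most others span 0.

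Slc6a8 encodes the creatine transporter. It read 7.80, 7.83, 7.98, 7.80 and 7.75 in the 5 KO livers, against 8.12, 8.17, 8.21, 8.25 and 8.27 in the 5 WT livers. Every KO liver lay below every WT liver, with KO replicate 3 the highest of its group. Slc6a8 fell by 0.37 (SE 0.053, limma adjusted p = 0.00119), a difference of -22.8% in intensity, and it passed in each of the 20 alternative settings.

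Slc1a5 encodes ASCT2, an exchanger of glutamine and other neutral amino acids. Its KO livers read 7.04, 7.04, 6.87, 6.83 and 6.95, against 7.29, 7.30, 7.24, 7.23 and 7.21 in WT livers. The groups did not overlap, and the WT livers lay closer together. Slc1a5 fell by 0.31 (SE 0.052, limma adjusted p = 0.00389). Its level lay not far above the 6.72 of the olfactory receptor genes.

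Slc7a5 encodes LAT1, the light chain of the system L exchanger that brings leucine and other large neutral amino acids into cells. Values were 8.08, 8.13, 8.20, 8.11 and 8.03 in KO livers, against 8.53, 8.33, 8.30, 8.37 and 8.55 in WT livers. All KO livers lay below all WT livers, and WT replicates 1 and 5 were the highest. Slc7a5 fell by 0.30 (SE 0.060, limma adjusted p = 0.00996).

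Slc36a4 encodes PAT4, a carrier of proline and tryptophan with high affinity. KO livers read 8.49, 8.49, 8.13, 8.50 and 8.62, against 8.92, 8.96, 8.73, 8.75 and 8.83 in WT livers. The groups were apart, with KO replicate 3 well below the other KO livers. Slc36a4 fell by 0.39 (SE 0.085, limma adjusted p = 0.0173), and by 0.31 (adjusted p = 0.0142) without that liver.

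Slc6a12 encodes BGT1, the transporter of betaine and GABA, which is known in liver. It read 12.00, 12.07, 12.03, 11.93 and 11.97 in KO livers, against 11.74, 11.76, 11.65, 11.88 and 11.89 in WT livers. The lowest KO liver lay just above the highest WT liver. Slc6a12 rose by 0.22 (SE 0.055, limma adjusted p = 0.0367), the weakest of the 5 calls, and without any 1 of 7 arrays it did not pass (adjusted p up to 0.0919), nor with arrays centred on their medians (0.0558), where the split was 0 higher and 4 lower. Its paralog Slc6a13, encoding the GABA and taurine transporter GAT2 of hepatocytes, read 12.17 ± 0.10 in KO and 12.19 ± 0.04 in WT livers, a difference of -0.02 with a 95% interval of -0.13 to 0.10.

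Leaving out the 3 arrays of widest interquartile range lowered the share called over all genes from 5.61% to 2.64%. Of the 5 transporter genes 1 then passed by limma, Slc6a8 (-0.33, adjusted p = 0.0165). The other 4 kept their direction there, at adjusted p of 0.0575 for Slc1a5, 0.115 for Slc7a5, 0.0523 for Slc36a4 and 0.118 for Slc6a12.

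**Figure D2:**
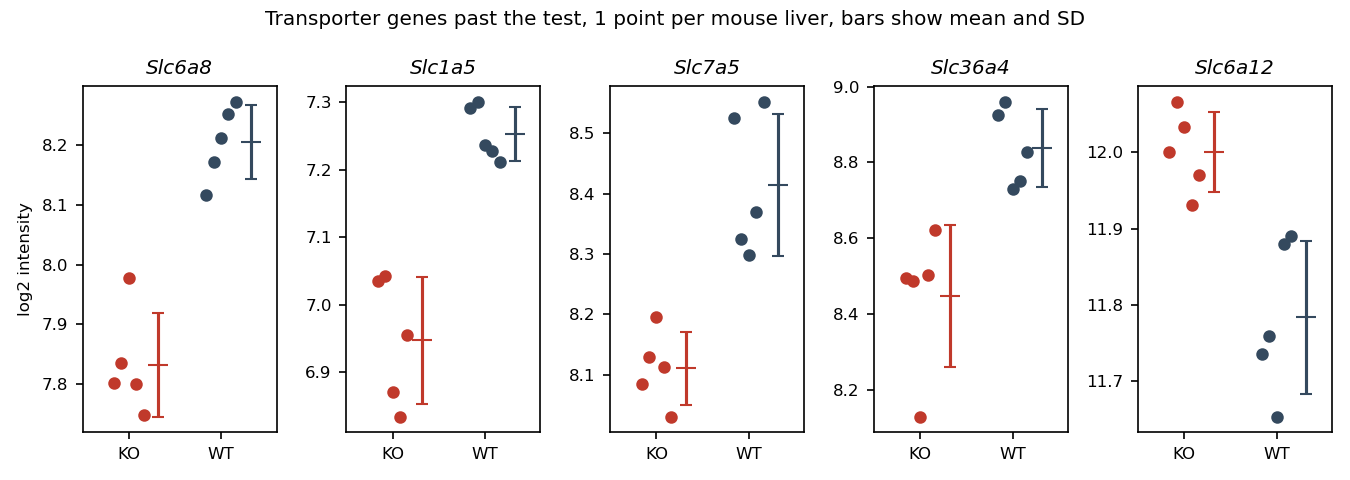
Log2 intensity (y axis, a separate range for each gene) of the 5 genes past the test in the 5 KO (red) and 5 WT (dark) livers, 1 point per liver, with the mean and SD beside the points. In each panel the KO and WT points do not overlap, and Slc6a12 is the 1 gene with KO above WT.

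Another 9 transporter genes had an unadjusted limma p under 0.05 without passing the adjusted test. With the 5 changed genes these are 14 of 64, or 21.9%, against 17.4% of all genes. Slc6a16 was the only one of the 9 in which the groups did not overlap. This orphan member of family 6 read 7.65, 7.91, 8.24, 7.78 and 7.64 in KO livers, against 7.53, 7.56, 7.62, 7.60 and 7.56 in WT livers. KO replicate 3 was the highest, and the difference was 0.27 (SE 0.097, adjusted p = 0.151).

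Slc1a4 and Slc7a7 came closest to the threshold. Slc1a4, which encodes the neutral amino acid exchanger ASCT1, read 7.73, 7.69, 7.58, 7.69 and 7.40 in KO livers, against 7.41, 7.38, 7.32, 7.50 and 7.42 in WT livers. Only KO replicate 5 lay among the WT livers, and the difference of 0.21 had an adjusted p of 0.0875. Without that liver it was 0.27 and passed (adjusted p = 0.0133), as it did with array weights. Slc7a7, the light chain y+LAT1, averaged 7.32 ± 0.07 in KO and 7.51 ± 0.12 in WT livers (SD, n = 5 each, difference -0.19, adjusted p = 0.106). It passed without WT replicate 4 (adjusted p = 0.0347), the lowest of the WT livers.

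Slc6a9 and Slc38a2 had differences as large as those of the changed genes, with more spread. Slc6a9 encodes the glycine transporter GLYT1. Its KO livers read 10.85, 10.69, 11.32, 11.05 and 11.38, against 11.26, 11.40, 11.42, 11.43 and 11.38 in WT livers. KO livers varied more than WT livers (SD 0.30 and 0.07), and KO replicates 3 and 5 lay within the WT range. The difference was -0.32 (SE 0.12, limma adjusted p = 0.150). Slc38a2 encodes SNAT2, the system A carrier that amino acid shortage induces. It read 11.98, 12.20, 11.74, 11.71 and 12.09 in KO livers, against 12.16, 12.21, 12.62, 12.01 and 12.15 in WT livers. The groups overlapped and WT replicate 3 was the highest, with a difference of -0.29 (SE 0.12, adjusted p = 0.225).

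The cationic amino acid transporter Slc7a2, known as a carrier of arginine into hepatocytes, averaged 12.53 ± 0.18 in KO and 12.75 ± 0.08 in WT livers (difference -0.21, limma adjusted p = 0.161). KO livers ran from 12.23 to 12.67 and WT livers from 12.67 to 12.85, so the groups met at their edges. Its relative Slc7a1 differed by -0.05, with a 95% interval of -0.24 to 0.14. The remaining genes of the 9 were Slc3a2 (0.12), Slc38a7 (0.16) and Slc38a10 (-0.12), with adjusted p between 0.221 and 0.285.

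The chains of the heteromeric exchangers gave values of both signs. Slc3a2 encodes 4F2hc, the heavy chain that pairs with Slc7a5, Slc7a7 and other light chains. It read 11.62 ± 0.03 in KO and 11.50 ± 0.10 in WT livers, with every KO liver above the WT mean but the groups overlapping (adjusted p = 0.221). Slc3a1, the rBAT heavy chain, averaged 10.68 ± 0.23 in KO and 10.48 ± 0.16 in WT livers (difference 0.20, adjusted p = 0.383). Of the 16 genes named Slc7, Slc7a5 fell and 15 did not pass (6.25% called, against the 5.61% background), and both Slc3 genes did not pass. Of the other light chains of 4F2hc above the olfactory range, Slc7a7 stood at -0.19 (limma adjusted p = 0.106). Slc7a8 at 0.06, Slc7a6 at -0.04 and Slc7a10 at -0.03 were near 0. The cystine exchanger light chain Slc7a11, a known ATF4 target, averaged 5.07 ± 0.05 in KO and 5.07 ± 0.04 in WT livers, within the range of olfactory receptor genes.

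The sodium-coupled carriers of family 38 showed no call by limma among 11 genes, against the 5.61% background. At an unadjusted p under 0.05 there were 3 (27.3%), against 17.4% of all genes. Slc38a3, which encodes the glutamine and histidine carrier SNAT3, read 13.62, 13.71, 13.63, 13.67 and 13.66 in KO livers, against 13.65, 13.60, 13.65, 13.67 and 13.65 in WT livers. The groups overlapped throughout, and the 95% interval of the difference ran from -0.07 to 0.10. Slc38a4, encoding the liver system A carrier SNAT4, read 13.42 ± 0.02 in KO and 13.37 ± 0.06 in WT livers, with an interval of -0.04 to 0.14. The lysosomal arginine sensor Slc38a9 differed by -0.06 and Slc38a6 by 0.06.

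In family 1, Slc1a5 fell and the other 6 genes did not pass (14.3% called, against the 5.61% background). Slc1a2, which encodes the glutamate transporter GLT-1 and is known in hepatocytes next to the central vein, read 11.64, 11.66, 11.79, 11.74 and 11.91 in KO livers, against 11.72, 11.87, 11.84, 11.82 and 11.84 in WT livers. The groups overlapped, with KO replicate 5 the highest of all, and the difference was -0.07 (95% interval -0.19 to 0.05). The summed markers of pericentral hepatocytes overlapped as well, at 56323 to 60118 in KO and 54347 to 60017 in WT livers, with Lect2 of that list higher by 0.23. Slc1a1, the epithelial glutamate transporter EAAC1, and Slc1a6 lay within the olfactory range.

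Among 21 genes named Slc6, 1 rose, 1 fell and 19 did not pass (9.52% called, against the 5.61% background). With 1 or 2 calls in a family, nothing is read from these shares. The taurine transporter Slc6a6 averaged 10.74 ± 0.22 in KO and 10.94 ± 0.21 in WT livers (difference -0.20, adjusted p = 0.449). The transporters of the neurotransmitters dopamine (Slc6a3), serotonin (Slc6a4) and noradrenaline (Slc6a2) differed by -0.05, 0.07 and 0.04, at levels close to the olfactory range. Slc6a19, which encodes the neutral amino acid transporter of gut and kidney, lay within that range at 5.76 ± 0.12 in KO and 5.74 ± 0.11 in WT livers. Slc6a20a and Slc6a20b are close paralogs that could share signal, and neither passed.

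In family 36, Slc36a4 fell and the other 3 genes did not pass (25% called, against 5.61%), and the 3 genes of family 43 did not pass. The lysosomal carrier Slc36a1 averaged 9.64 ± 0.18 in KO and 9.70 ± 0.09 in WT livers, with KO replicate 5 the lowest at 9.33. Slc43a1, which encodes LAT3, a carrier of leucine and related amino acids found in liver, varied widely within both groups, from 8.76 to 9.42 in KO and from 8.89 to 9.60 in WT livers. Its 95% interval ran from -0.31 to 0.33. Slc43a2 differed by -0.07 and Slc43a3, which encodes a purine nucleobase transporter, by -0.04.

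**Figure D3:**
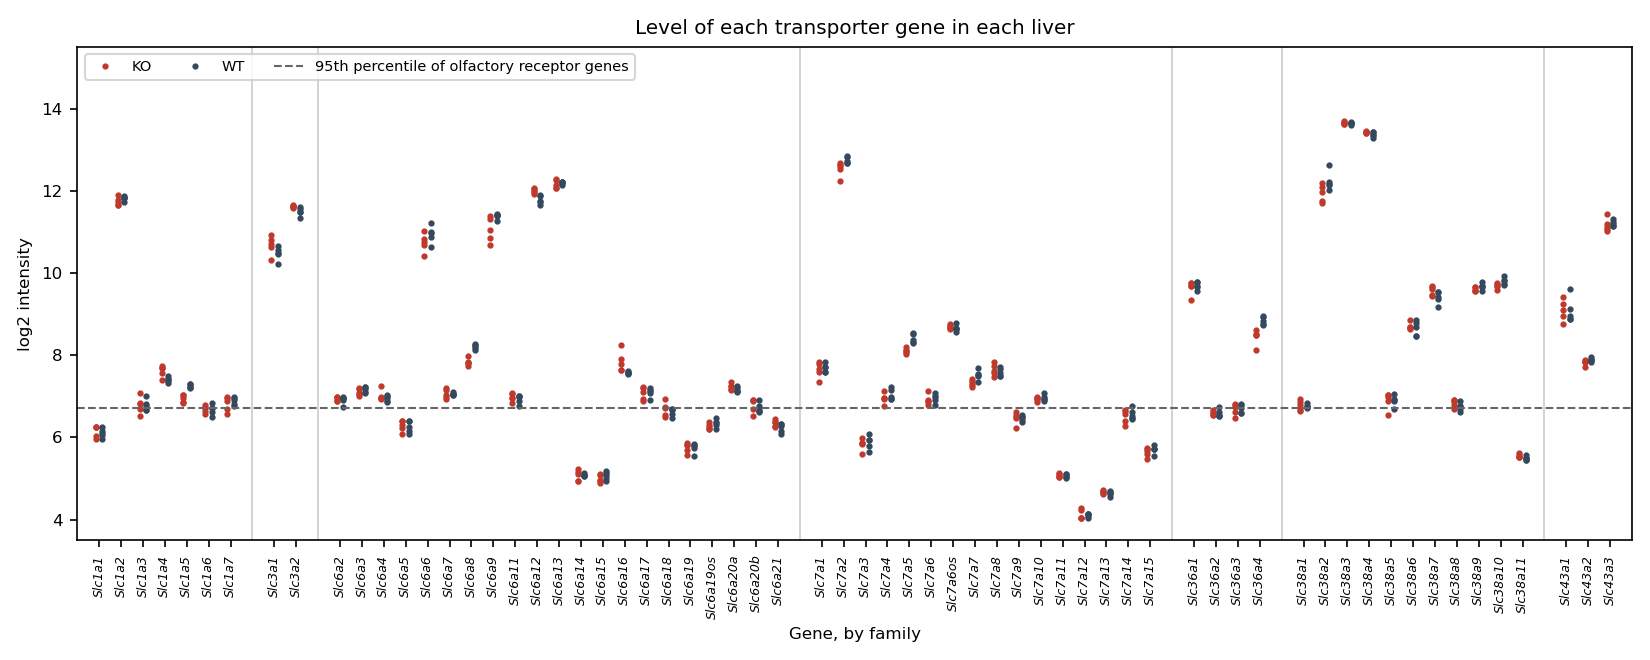
Log2 intensity (y axis) of each of the 64 genes in 5 KO (red, left of each pair) and 5 WT (dark, right) livers, 1 point per liver, with families set apart by vertical lines. The dashed line at 6.72 is the 95th percentile of olfactory receptor genes, and 19 of the 64 genes have a mean below it.

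Promoter windows were examined because the changed genes include known ATF4 targets and Rev-erb alpha, which Nr1d1 encodes, is itself a DNA-binding repressor. RefSeq windows of assembly GRCm38.p6, from 250 bases before to 50 after the start, were found for 47 of the 64 genes, in 68 windows. Of the changed genes, Slc36a4 and Slc6a12 were among the 47, while Slc6a8, Slc1a5 and Slc7a5 were not. The 3 motifs were searched on both strands. They were TGATGNAA for the C/EBP-ATF response element, CACGTG for the E-box bound by BMAL1 and CLOCK, and AGGTCA for the half-site that Rev-erb and many other nuclear receptors bind. No searched motif contains another. TGATGNAA was present in windows of 4 of the 47 genes, Slc1a4, Slc6a21, Slc7a7 and Slc7a11, that is 8.51% against 4.51% of all genes with windows. CACGTG was present in 9 of the 47 (19.1%) against 8.09% of all genes, and AGGTCA also in 9 (19.1%) against 18.1%. A gene counts here if any of its windows matches, so a gene with more windows has more chances. Counted by window, TGATGNAA was present in 5 of 68, against 3.97% of all windows. CACGTG was present in 9 of 68, against 7.15%, and AGGTCA in 10 of 68, against 16.3%. A match is a match of letters and no evidence of binding.

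A window is given for each of the changed genes Slc36a4 and Slc6a12, and for the genes with TGATGNAA that are nearest the threshold or known as ATF4 targets. Windows run 5′ to 3′ on the strand of the gene, with motif letters in capitals.
Slc36a4 promoter, chr9:15709488-15709787, plus strand: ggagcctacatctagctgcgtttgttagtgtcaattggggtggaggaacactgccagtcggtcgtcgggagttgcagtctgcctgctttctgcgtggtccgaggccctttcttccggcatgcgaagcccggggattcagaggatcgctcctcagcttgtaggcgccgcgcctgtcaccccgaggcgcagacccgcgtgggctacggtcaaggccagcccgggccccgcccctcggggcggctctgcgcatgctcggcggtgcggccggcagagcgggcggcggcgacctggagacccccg
Slc6a12 promoter, chr6:121342653-121342952, plus strand: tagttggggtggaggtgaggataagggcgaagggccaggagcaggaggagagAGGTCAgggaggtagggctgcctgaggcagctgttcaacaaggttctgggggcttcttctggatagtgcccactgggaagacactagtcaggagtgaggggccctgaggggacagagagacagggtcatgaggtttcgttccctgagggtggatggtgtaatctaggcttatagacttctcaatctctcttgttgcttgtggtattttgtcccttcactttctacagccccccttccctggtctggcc
Slc1a4 promoter, chr11:20332664-20332963, minus strand: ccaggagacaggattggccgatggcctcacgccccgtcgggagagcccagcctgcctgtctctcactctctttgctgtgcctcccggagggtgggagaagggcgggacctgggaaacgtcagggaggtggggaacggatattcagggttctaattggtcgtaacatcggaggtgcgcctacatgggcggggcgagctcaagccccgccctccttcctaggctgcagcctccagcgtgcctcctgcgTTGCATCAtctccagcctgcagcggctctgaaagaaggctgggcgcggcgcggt
Slc7a7 promoter, chr14:54417895-54418194, minus strand: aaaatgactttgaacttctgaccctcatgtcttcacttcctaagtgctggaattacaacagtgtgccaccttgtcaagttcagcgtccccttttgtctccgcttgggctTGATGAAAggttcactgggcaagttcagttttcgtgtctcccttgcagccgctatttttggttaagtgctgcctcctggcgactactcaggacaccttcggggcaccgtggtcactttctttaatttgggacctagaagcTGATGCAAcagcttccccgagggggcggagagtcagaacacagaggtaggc
Slc7a11 promoter, chr3:50443564-50443863, minus strand: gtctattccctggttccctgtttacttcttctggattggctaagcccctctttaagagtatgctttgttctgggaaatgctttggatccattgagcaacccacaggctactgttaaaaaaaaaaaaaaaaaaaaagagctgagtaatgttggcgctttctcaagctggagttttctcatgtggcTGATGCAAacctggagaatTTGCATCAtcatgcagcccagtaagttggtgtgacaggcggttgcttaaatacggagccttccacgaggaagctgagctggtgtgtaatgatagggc
The Slc36a4 window, of the gene that fell by 0.39, held none of the 3 motifs. The Slc6a12 window is 1 of 5 for that gene and the only one with a match, an AGGTCA that begins 198 bases before the start. In Slc1a4, TTGCATCA, the reverse complement of the response element, begins 4 bases before the start. Slc7a7 holds TGATGAAA and TGATGCAA, beginning 141 bases and 1 base before the start of this window, 1 of 5 for the gene. Slc7a11 holds TGATGCAA and TTGCATCA, 66 and 47 bases before the start. Among these 3 genes with TGATGNAA, differences were 0.21 for Slc1a4, -0.19 for Slc7a7 and 0.01 for Slc7a11, and none passed. The windows of Slc3a2, Slc38a2, Slc6a9 and Slc7a1, listed below among transporters that ATF4 is known to drive, held no TGATGNAA.

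Genes that degrade amino acids inside the hepatocyte were higher in KO livers as far as they passed. Of 48 measured amino acid catabolism enzymes, 18 rose, none fell and 30 did not pass by limma, that is 37.5% against the 5.61% background. At an unadjusted p under 0.05 there were 32 (66.7%), against 17.4% of all genes. Their median difference was 0.17, against 0.00 for the transporters and 0.01 for all genes. Gldc, the glycine-cleaving decarboxylase, rose by 1.33 (SE 0.053, limma adjusted p = 4.3e-08), with means of 11.86 ± 0.07 in KO and 10.53 ± 0.08 in WT livers. Amt, the aminomethyltransferase of the same complex, rose by 0.62, the alanine-glyoxylate aminotransferase Agxt by 0.56 and the histidine-degrading Amdhd1 by 0.52. Without the 3 arrays of widest interquartile range, 9 of the 48 passed, against 2.64% of all genes in that fit.

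The genes of the amino acid response, which ATF4 drives, went both ways. Of 27 measured, 3 rose, 3 fell and 21 did not pass, that is 22.2% called against the 5.61% background. The asparagine synthetase gene Asns fell by 2.84 (SE 0.10, limma adjusted p = 2.3e-08) and Atf4 by 0.24 (adjusted p = 0.0269). The call of Atf4 was lost when any 1 of 6 arrays was left out (adjusted p up to 0.0665). It also did not pass in the fit that left out KO replicates 4 and 5 and WT replicate 1 together (0.102). The translation repressor gene Eif4ebp1 fell by 0.20, while the lipoprotein receptor gene Vldlr rose by 1.03, the transcription factor gene Atf5 by 0.58 and the cysteine-forming Cth by 0.25. The last 4 were picked with their values in view, and Cth did not pass without the 3 arrays of widest interquartile range (limma adjusted p = 0.0570). Transporters that ATF4 is known to drive, a set written down with the values in view, stood at -0.31 for Slc1a5, -0.30 for Slc7a5, -0.32 for Slc6a9, -0.29 for Slc38a2, 0.12 for Slc3a2, 0.21 for Slc1a4, -0.05 for Slc7a1 and 0.01 for Slc7a11, of which Slc1a5 and Slc7a5 passed.

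The shares called in the other lists are given against the same background of 5.61%. In each of the 6 pathway lists most genes lay above the olfactory range, where 8.08% of all genes passed. Of 18 cytosolic aminoacyl-tRNA synthetases, which load amino acids onto tRNA, Tars rose by 0.39 and 17 did not pass (5.56% called), with a median of -0.07. Tars went against most of its list, in which 16 genes read lower in KO and 2 higher. At an unadjusted limma p under 0.05 there were 5 (27.8%), against 17.4% of all genes. None of 34 genes of amino acid sensing and mTORC1 passed by limma, with 3 (8.82%) at an unadjusted p under 0.05, against 17.4% of all genes. Of 16 transporters and partners outside the named families, Slc17a1 rose by 0.63, Slc18b1 by 0.39, and 14 did not pass (12.5% called). Slc17a1 is known for phosphate and urate and Slc18b1 for polyamines, not for amino acids. Among 12 genes that regulate transporters 3 passed (25%). The kinase Sgk2 rose by 1.06 and the ubiquitin ligase Nedd4l by 0.69, while Nedd4 fell by 0.15, a call lost without any 1 of the 10 arrays (limma adjusted p up to 0.0988). Without the 3 arrays of widest interquartile range, Nedd4l (adjusted p = 0.0601) and Slc18b1 (0.0722) also did not pass.

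**Figure D4:**
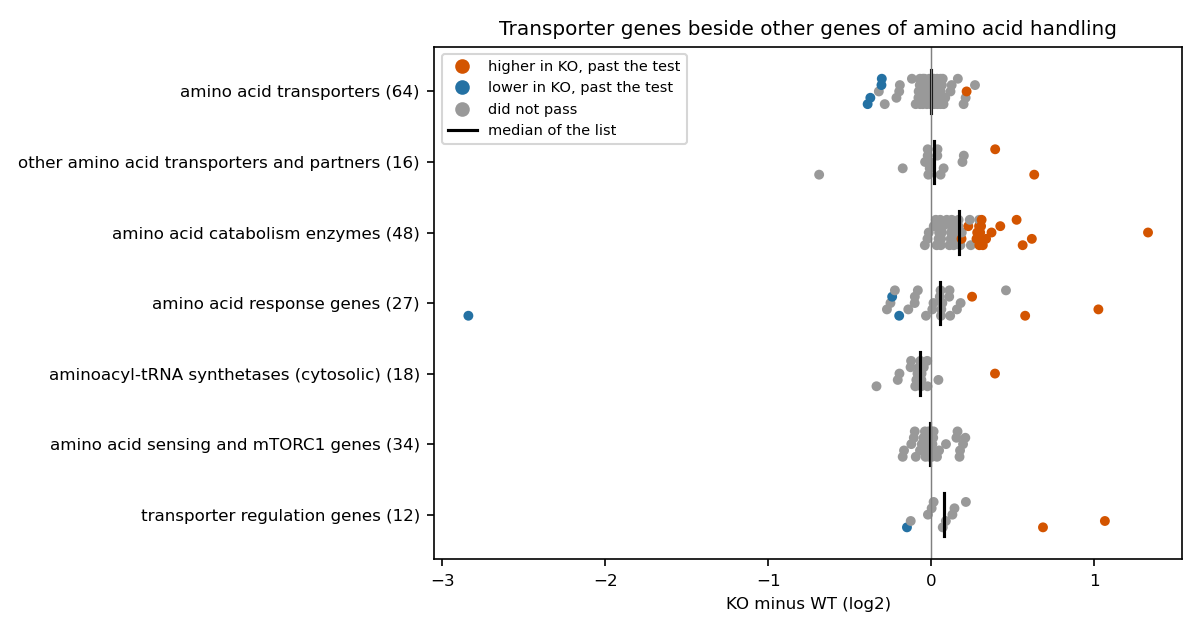
Difference between KO and WT livers (log2, x axis) for each gene of 7 lists, with the number of measured genes in brackets and the list median as a black bar. The 64 transporters lie between -0.39 and 0.27, while 18 of 48 catabolism enzymes are marked higher in KO and Asns stands at -2.84 among the response genes.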

How the data were processed

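Liver RNA of 5 KO and 5 WT mice was measured on Affymetrix Mouse Gene 1.0 ST arrays. The authors deposited 1 table of normalized intensity for 27541 probe sets. It was made with RMA and Partek, per the submitters' processing notes, which give no version. RMA corrects background, brings arrays close to one distribution and summarises probes. The deposited intensity values were linear, so log2 was taken here. The table holds no detection calls, and precision is limited by how many arrays there are.

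Probe sets were named through the platform annotation, in which 21631 had 1 symbol, 1317 several and 4593 none. KO was compared with WT on 19933 genes by limma 3.58.1 (R 4.3.3, lmFit and eBayes, two-sided, no covariates), with Benjamini-Hochberg adjustment over all genes and a threshold of 0.05. Each printed adjusted p comes from that fit. Differences are KO minus WT in log2, with the SE of the fit, and groups are mean ± SD. All p-values rest on the spread between these 10 mice. The fit was tested on simulated data.

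Members and lists were chosen with earlier results of these data known. Every transporter gene could be named, with Nr1d1, Asns and Atf4, the changed genes of smallest adjusted p in the remaining lists (up to 4) and in the marker lists (up to 3). Genes in the Other observations and 4 response genes were instead named with their values in view. The 14 marker lists and 6 pathway lists are described by counts, without a set test. Alternatives were other probe set rules, filters, scalings, variance models and sets of arrays. The labels name no batch and no pairing, and replicate numbers follow the order of deposit and only name a liver.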

Additional observations from a re-analysis of the deposited data

Results flagged for a closer look

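In 8 of 128 groups of 5 livers, 1 liver stood apart by Dixon's criterion at 0.71, and chance alone gives about 1 in 20 such groups. Among the changed genes this held for Slc36a4, with KO replicate 3 at 8.13 and the other KO livers between 8.49 and 8.62. KO replicate 3 also stood high for Slc6a4, at 7.25 against 6.94 to 6.98, and for Slc38a6, at 8.87 against 8.64 to 8.69. Slc43a2 was low in KO replicate 2, at 7.71 against 7.83 to 7.88. Slc36a1 was low in KO replicate 5, at 9.33 against 9.67 to 9.76. In WT livers, replicate 1 was low for Slc6a9, at 11.26 against 11.38 to 11.43, and for Slc6a2, at 6.73 against 6.91 to 6.98. Slc38a3 was low in WT replicate 2, at 13.60 against 13.65 to 13.67.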

How the results depend on the processing

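No called transporter gene changed direction in any alternative. Without the 3 arrays of widest interquartile range, 1 transporter gene passed (0 higher, 1 lower). So did 4 amino acid response genes, 1 aminoacyl-tRNA synthetase, 1 of the other transporters and partners, 9 catabolism enzymes and 1 transporter regulation gene. Over all genes the calls fell there from 1119 (5.61%) to 527 (2.64%). The number of transporter genes higher in KO was 0 with arrays centred on their medians and 2 with array weights. When 1 array was left out, the transporter calls ran from 4 to 6, with 0 to 1 higher and 4 to 5 lower, and the catabolism calls from 16 to 20. The share of all genes called ran from 4.04% to 6.26% in those fits. The median transporter difference then lay between -0.03 and 0.02. Slc6a12 did not pass without KO replicate 1, 2, 3 or 5 or WT replicate 1, 2 or 3. Slc1a5 was left out by the filter at the median level of all genes. No paired analysis was possible because the labels pair no KO mouse with a WT mouse, and the replicate numbers used here only name livers in the order of deposit. Without detection calls, signal over background is unknown for genes near the olfactory range.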

Other observations

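Enzymes of betaine breakdown were higher on average in KO livers, as was the betaine transporter Slc6a12, an observation made after the values were seen. An association from liver to liver was not tested. Bhmt, which uses betaine to methylate homocysteine, averaged 13.54 ± 0.05 in KO and 13.24 ± 0.09 in WT livers (SD, n = 5 each, limma adjusted p = 0.00520). Dmgdh and Sardh, the next enzymes on the way to glycine, rose by 0.34 and 0.19. Without the 3 arrays of widest interquartile range, Bhmt (adjusted p = 0.0532), Sardh (0.0928) and Slc6a12 (0.118) did not pass, and Sardh also did not pass without WT replicate 3 or KO replicate 4 (up to 0.0520). Dmgdh passed in all 20 alternative settings, and Slc6a12 in 11 of them. In histidine breakdown, the enzymes Hal, Uroc1 and Amdhd1 rose by 0.42, 0.31 and 0.52, while the histidine carrier Slc38a3 differed by 0.02 (95% interval -0.07 to 0.10). These pairs were picked from many, so they are values set side by side.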
